A study of Sordaria macrospora with 16 samples.

Results

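The comparison described here set the H3K27me3 precipitates of Δasf1, a strain of the filamentous ascomycete *Sordaria macrospora* without the histone chaperone gene *asf1*, against the histone H3 precipitates of the same strain. The members were chosen by their labels alone. They were the 4 precipitated Δasf1 libraries, 2 with each antibody, among 16 samples in the series. Of those samples, 8 came with a list of broad peaks and the other 8 were inputs, which were not analysed here. Mycelium of Δasf1 came from liquid cultures kept at 27 °C over 3 days, and wild-type mycelium, used below for comparison, over 2 days. Chromatin was fixed with formaldehyde and digested with micrococcal nuclease at 230 U/ml over 105 min before precipitation with an antibody against trimethylated lysine 27 of H3 or against H3 itself. The genotype thus came with a different culture time. Δasf1 strains are also known to carry a duplicated stretch of the second chromosome, so deletion, culture time and duplication cannot be told apart in any comparison between strains. The H3K27me3 and H3 lists of Δasf1 share all of these.

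ASF1 is a chaperone that carries H3 and H4 dimers to and from chromatin as nucleosomes are built and taken apart. H3K27me3 is placed by the Polycomb repressive complex and, in many filamentous fungi, marks silenced facultative heterochromatin, often near chromosome ends. An H3 antibody recovers nucleosomes whatever their marks, so that an H3 precipitate follows nucleosome occupancy and how readily the chromatin was cut. Whether the H3 peaks called here do so was not tested. A mark that is distributed like nucleosomes gives peaks at the same places with both antibodies, and a mark with domains of its own gives peaks where H3 has none.

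The 4 lists held 23016 peaks. The H3K27me3 lists had 6090 peaks in replicate 1 and 6167 in replicate 2, and the H3 lists had 6358 and 4401. They covered 8.74 and 9.83 Mb with H3K27me3 and 9.60 and 5.81 Mb with H3, or 22.2% and 24.9% against 24.3% and 14.7% of the 39.4 Mb genome. The list of H3 replicate 2 therefore stood apart from the other 3 in number and length. Peak number averaged 6128.5 ± 54.4 with H3K27me3 and 5379.5 ± 1384 with H3 (SD, n = 2 each), a ratio of geometric means of 1.16 (log2 0.21, exact two-sided permutation test, p = 1). Within replicate 1 it stood at 0.958, and within replicate 2 at 1.40. For covered length it was 1.24 over all lists (log2 0.31, exact permutation test, p = 0.667), 0.911 within replicate 1 and 1.69 within replicate 2. Without H3 replicate 2, both turned round, to a log2 ratio of -0.053 for number and -0.050 for length. With 2 lists against 2 there are 6 assignments, and the smallest two-sided p they allow is 0.333.

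The cutoff of the lists went with the replicate number and not with the antibody. The lowest -log10 q was 2.02 with H3K27me3 and 2.05 with H3 in replicate 1, and 1.00 with H3K27me3 and 1.02 with H3 in replicate 2. For this reason the text also gives values for each replicate number on its own. Peaks were shallow with either antibody. The median fold enrichment was 1.43 and 1.32 in the H3K27me3 lists, against 1.39 and 1.35 in the H3 lists, and the highest in any of the 4 was 1.94. Read counts are not part of the lists, and the depth of sequencing is unknown.

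The peak lists of Δasf1 did not group by antibody. Overlap was measured as the Jaccard index, the length covered by both lists over the length covered by either. The highest of the 6 pairs was H3K27me3 replicate 1 with H3 replicate 1, at 53.8%. H3K27me3 replicate 2 with H3 replicate 1 came next at 41.3%, ahead of the H3K27me3 lists with each other at 39.0%. The H3 lists shared 30.1%, H3K27me3 replicate 2 shared 30.4% with H3 replicate 2, and H3K27me3 replicate 1 shared 28.9% with H3 replicate 2. The 3 pairs that include H3 replicate 2, the shortest list, were thus the 3 lowest whichever antibody it met.

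**Figure D1:**
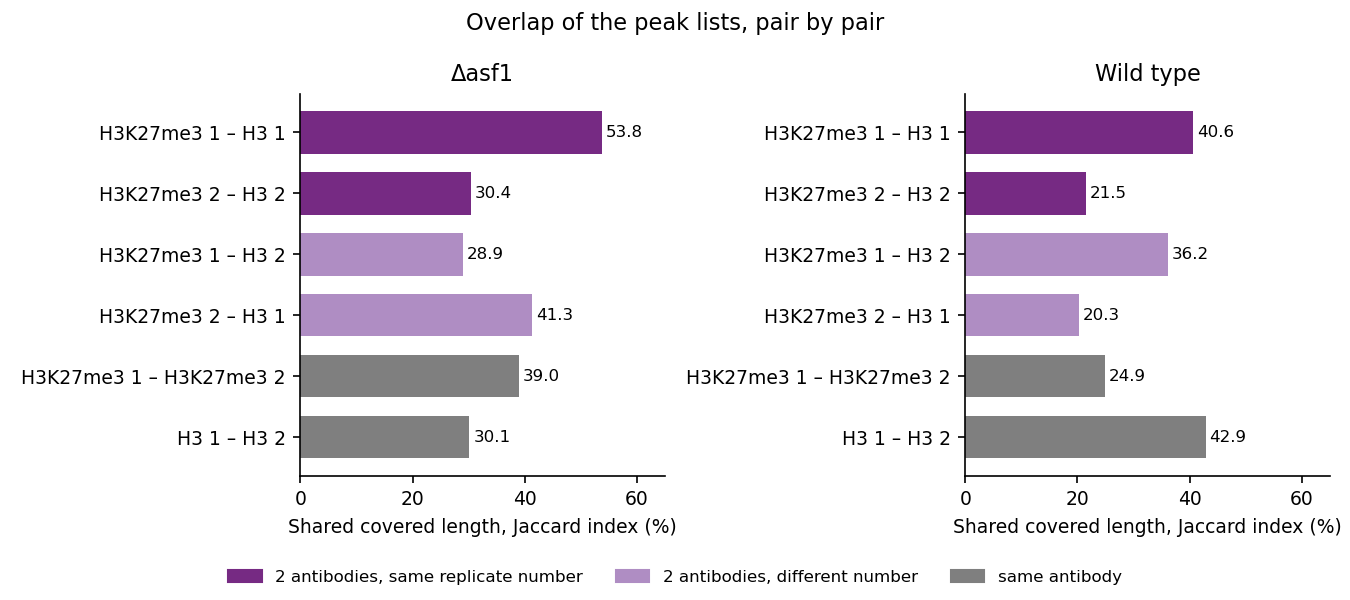
Jaccard index (%) of covered length for each pair of peak lists, Δasf1 on the left and wild type on the right; the digit after the antibody is the replicate number. In Δasf1 the longest bar, 53.8%, joins H3K27me3 1 with H3 1, whereas in the wild type the longest, 42.9%, joins the H3 lists.

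Same-antibody pairs averaged 34.5% (n = 2) and mixed pairs 38.6% (n = 4), a difference within minus between antibodies of -4.04 percentage points. Of the 3 ways to part 4 lists into pairs, this was the lowest (exact, one-sided permutation test for greater overlap within antibodies, p = 1, smallest possible 0.333). Mixed pairs of the same replicate number averaged 42.1%, and those of different numbers 35.1%. The wild-type lists shared more within antibodies, 33.9%, than between them, 29.6%, a difference of 4.26 points. Δasf1 minus wild type, this was -8.30 points (exact two-sided permutation of strain labels within antibodies, 36 assignments, p = 0.111, smallest possible 0.0556). The Δasf1 value turned round to 9.30 points when H3 replicate 1 was left out, and the strain difference to 5.05 points. The strain difference also turned round, to 1.45 points, without wild-type H3 replicate 2, and it was -0.14 points without wild-type H3 replicate 1. The direction of the Δasf1 value thus depended on 1 list, and that of the strain difference on either of 2 lists.

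Borders of shared peaks were closest between the antibodies of replicate 1. Where a peak of one list met exactly 1 peak of another, the 4327 matched peaks of H3K27me3 and H3 in replicate 1 had borders at a median distance of 67 bp from each other. For the H3K27me3 lists against each other it was 158 bp (3607 matched peaks), and for the remaining pairs 124 to 190.5 bp. Of the borders, 65.9% lay within 200 bp of each other for H3K27me3 and H3 in replicate 1. For all the other pairs, of the same antibody or mixed, it was 50.3% to 54.2%. Read the other way, 73.4% of the length of H3K27me3 replicate 1 lay in H3 peaks of replicate 1, and 59.6% in H3K27me3 peaks of replicate 2. The closest match in position and border was thus across antibodies. The peaks of greatest significance were shared most. Among the top 1522 peaks of H3K27me3 replicate 1 by q, 83.5% of the length lay in H3 replicate 1 and 70.3% in H3K27me3 replicate 2. Among the bottom 1523 it was 55.7% and 46.2%.

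Peaks of the 4 Δasf1 lists merged into 7869 regions, counted by which lists had a peak in them. All 4 lists met in 2547 regions, 32.4% of the total. Both H3K27me3 lists and neither H3 list had a peak in 234 regions (2.97% of all regions), and both H3 lists and neither H3K27me3 list in 102 (1.3%). Regions held by replicate 1 of both antibodies and by no other list numbered 555 (7.05%), and by replicate 2 of both antibodies 230 (2.92%). The H3K27me3 pattern was therefore rarer than the pattern shared across antibodies within replicate 1 and about as frequent as that within replicate 2. One mixed pair of different numbers, H3K27me3 replicate 2 with H3 replicate 1, also met alone more often, in 323 regions, and the other, H3K27me3 replicate 1 with H3 replicate 2, in 62.

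**Figure D2:**
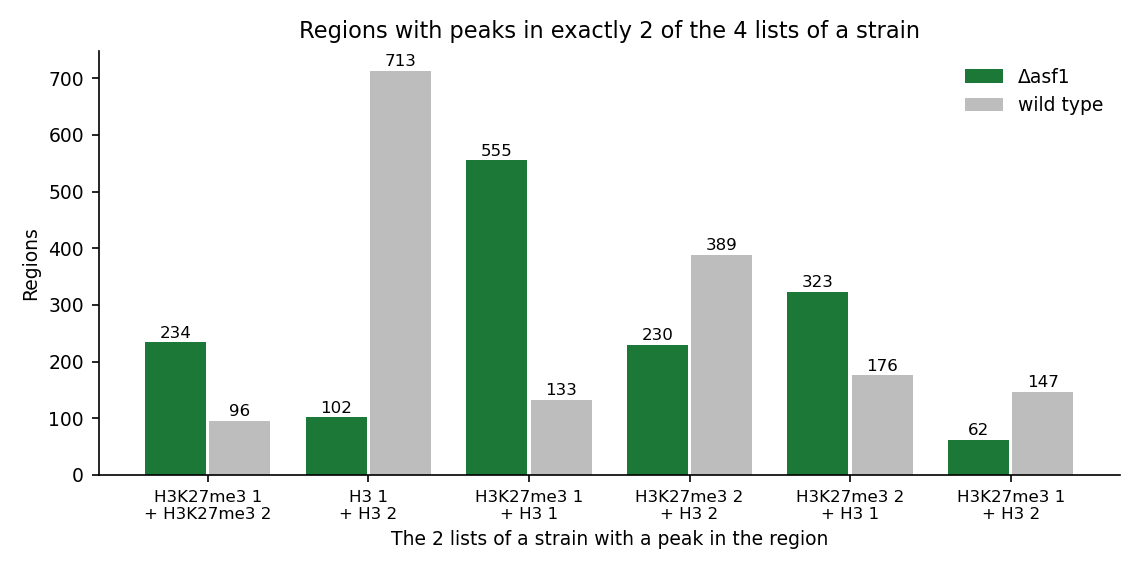
Number of regions with a peak in exactly 2 of the 4 lists of a strain, for each pair of lists, in Δasf1 (green) and the wild type (grey). In Δasf1 the tallest bar is H3K27me3 1 with H3 1 at 555, while the H3K27me3 pair holds 234 and the H3 pair 102; in the wild type the H3 pair is tallest at 713.

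The numbers of regions held by 1 antibody alone depended on the lists. At a common -log10 q of 2.05, the H3K27me3 class held 116 regions and the H3 class 33. This cutoff left 6088 and 2575 peaks in the H3K27me3 lists and 6357 and 1315 in the H3 lists, so it shortened the replicate 2 lists most. Leaving out any 1 of the 4 lists gave 390 to 1457 and 368 to 598, since 1 list fewer then had to hold or to lack a peak. Among the wild-type lists, 96 of 7997 regions had H3K27me3 peaks only (1.20%) and 713 had H3 peaks only (8.92%), while 133 (1.66%) were held by replicate 1 and 389 (4.86%) by replicate 2 of both antibodies alone. Counted by length, 20.4% and 32.3% of the H3K27me3 peaks of Δasf1 lay outside both H3 lists, where 70.0% of the genome lay. Of the H3 peaks 18.2% and 23.1% lay outside both H3K27me3 lists, where 66.1% of the genome lay. Most of either precipitate was thus covered by the other.

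The 234 regions with H3K27me3 peaks only were short and weak, as were other regions found in just a pair of lists. Their median width was 1231 bp, against 2995 bp for regions in all 4 lists and 1494 bp for any region, although merging peaks of more lists by itself makes a region longer. It was 1089 bp for the regions with H3 peaks only, 1021 bp for those of replicate 1 of both antibodies and 1266.5 bp for those of replicate 2. In each region the highest fold enrichment among the peaks of a list was taken. Its median over the 234 regions was 1.39 in H3K27me3 replicate 1 and 1.31 in replicate 2. In regions of all 4 lists it was 1.45 and 1.34, although a longer region can hold more peaks to take the highest from. With H3K27me3 in regions held by replicate 1 alone or by replicate 2 alone, this median was 1.40 and 1.31. Of the 234 regions, 23.9% held a peak in the upper 50% by q of H3K27me3 replicate 1, and 37.6% in that of replicate 2. Both wild-type H3K27me3 lists had a peak in 19.7% of the 234, below the 33.4% for any Δasf1 region, and both wild-type H3 lists in 42.3%, against 60.0% for any region. Other regions found in just a pair of lists were below any region too. Both wild-type H3K27me3 lists had a peak in 19.8% of those of replicate 1, 22.6% of those of replicate 2 and 26.5% of those with H3 only. For both wild-type H3 lists these shares were 56.9%, 27.4% and 35.3%. In 25 of the 234 (10.7%) no wild-type list had a peak, against 713 of all 7869 regions (9.06%). Peaks in both wild-type H3K27me3 lists and no wild-type H3 peak were found in 3 of the 234, against 117 of the 7869. Within 100 kb of a chromosome end lay 5 of the 234 (2.14%) and 189 of the 7869 (2.40%). These counts were near those of any region. The 234 regions held 70.5% of their length in genes, against 55.1% for the 102 regions with H3 peaks only and 75.1% for any region.

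Ranked by the lower of their fold enrichments in the H3K27me3 lists, the leading 10 of these regions, all of at least 500 bp, were 536 to 2679 bp wide, and each overlapped a protein-coding gene. The share of the whole class that overlaps a gene is not given here, so this count has no background. The gene table gives locus tags without products, so no role is stated for these genes. The first, on chromosome 5 from 589919 to 590498, lay over SMAC4_07245 and had a fold enrichment of 1.54 and 1.55. It was covered to 95.5% and 98.8% by the H3K27me3 lists and not by the H3 lists of Δasf1, but both wild-type H3 lists covered it, to 80.3% and 90.7%. A region over SMAC4_04194 on chromosome 5, from 1856639 to 1857605, had the highest enrichment in a single list, 1.68 in replicate 1 and 1.48 in replicate 2. Its peak of replicate 1 filled 29.9% of it and that of replicate 2 filled 98.7%. Of the 10 regions, 7 also met a stricter rule, under which each H3K27me3 list covers at least 50% and each H3 list less than 10%. Over all 7869 regions, 133 met that rule.

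No wild-type list had a peak in 2 of the 10. One was on chromosome 2 from 3717849 to 3719066, within SMAC4_02660, with an enrichment of 1.44 in each H3K27me3 list, of which replicate 1 filled 20.8% and replicate 2 all of it. The other was on chromosome 5 from 3751338 to 3752088, partly over SMAC4_06778, with an enrichment of 1.49 and 1.43. On chromosome 6, from 2381942 to 2383175 over SMAC4_08300 and SMAC4_08299, the H3K27me3 lists of Δasf1 covered 86.1% and 96.6%, and in the wild type H3K27me3 replicate 1 covered 95.0% and the H3 lists 96.4% and 95.2%. In 5 of the 10 neither wild-type H3K27me3 list had a peak, against 1 of the 5 regions named by length. The share over all regions of the class is not given here, so this count has no background. The longest region of the class was on chromosome 7 from 1844109 to 1848052, 3944 bp over SMAC4_00689 and SMAC4_00688, with an enrichment of 1.37 and 1.29. None of the 15 regions named by enrichment or length exceeded 3944 bp.

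The 102 regions with H3 peaks only held 55.1% of their length in genes. The leading 5 of them by enrichment were 1016 to 2257 bp wide, and 4 of these 5 overlapped a gene. The first, on chromosome 2 from 6099497 to 6101753, lay between genes nearest to SMAC4_08204, with an enrichment of 1.53 and 1.56 in the H3 lists, and all 4 wild-type lists had a peak in it. A region on chromosome 3 from 4253861 to 4255980, over SMAC4_01079, had 1.43 and 1.74. The longest regions in all 4 lists were stretches of the rRNA gene array at the right end of chromosome 2, of 33941 and 28321 bp. The array was covered to 83.1% and 76.5% by the H3K27me3 lists and to 82.5% and 85.6% by the H3 lists. It is a repeat, and its coverage went with both antibodies and both strains. The longest region elsewhere was on chromosome 1 from 6250623 to 6267851, over 5 genes from SMAC4_01361 to SMAC4_01357, covered to 53.9% and 80.1% by H3K27me3 and to 60.2% and 42.3% by H3.

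Wide peaks, in which domains of the mark would show, were present with both antibodies in Δasf1. Peaks of at least 5 kb numbered 114 and 158 with H3K27me3 and 143 and 35 with H3. They held 8.82% and 10.4% of covered length with H3K27me3, against 10.1% and 4.61% with H3, a difference of 2.23 percentage points (exact two-sided permutation test, p = 0.667). It was -1.31 points within replicate 1 and 5.77 within replicate 2, -0.535 without H3 replicate 2, and -0.228 for peaks of at least 10 kb. The widest peak of each list was at the rRNA gene array, 28309 and 19665 bp with H3K27me3 and 27858 and 33929 bp with H3. Median width was 1082.5 and 1189 bp with H3K27me3, against 1115 and 1057 bp with H3 (log2 ratio 0.064, exact permutation test, p = 0.667).

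Wide H3K27me3 peaks lay in peaks of the other lists, of either antibody, more than narrow ones did. Of the length of the 110 peaks of at least 5 kb in H3K27me3 replicate 1 outside the rRNA gene array, 81.1% lay in H3 replicate 1, 63.2% in H3K27me3 replicate 2 and 37.8% in H3 replicate 2. For the 153 of H3K27me3 replicate 2 the shares were 62.0% in H3 replicate 1, 58.5% in H3K27me3 replicate 1 and 40.9% in H3 replicate 2. None of either set lacked all overlap with H3 replicate 1, and 11 of the 110 and 14 of the 153 lacked it with H3 replicate 2. Peaks under 0.5 kb of H3K27me3 replicate 1 lay in H3 replicate 1 over 57.8% of their length and in H3K27me3 replicate 2 over 45.2%. Those of H3K27me3 replicate 2 lay in H3 replicate 1 over 52.4% and in H3K27me3 replicate 1 over 51.1%.

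**Figure D3:**
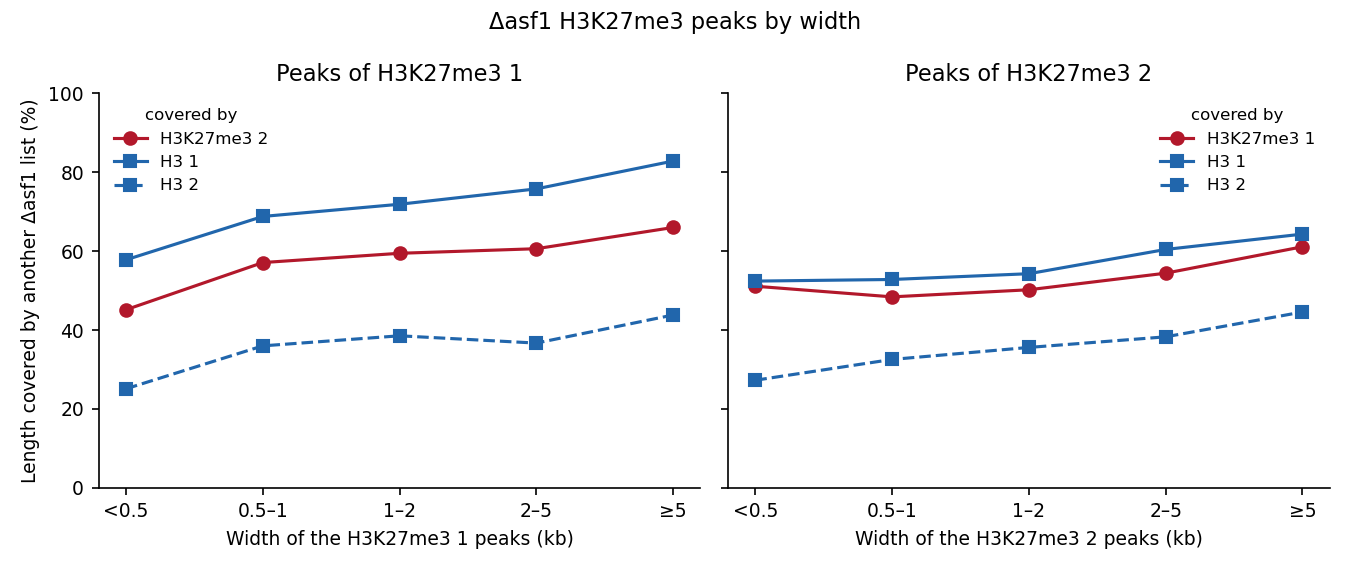
Percent of the length of Δasf1 H3K27me3 peaks that another Δasf1 list covers, by peak width in kb, for H3K27me3 1 on the left and H3K27me3 2 on the right (red, the other H3K27me3 list; blue, the H3 lists, with the shorter list H3 2 dashed). In every width class the H3 1 line lies above that of the other H3K27me3 list, at 82.9% against 66.0% for H3K27me3 1 peaks of 5 kb or more.

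The widest H3K27me3 peak of replicate 1 outside the array ran over 15212 bp of chromosome 1, from 8743827 to 8759038 at SMAC4_04816. H3K27me3 replicate 2 covered 39.0% of it, and the H3 lists 79.4% and 18.1%. A peak of 10782 bp on chromosome 1 from 1617158 to 1627939, over SMAC4_04934 and 3 more genes, was almost the same in H3 replicate 1, which covered 99.6% of it, while H3K27me3 replicate 2 covered 63.2%. In replicate 2 the widest was 10882 bp on chromosome 1 from 832166 to 843047, over SMAC4_05234, SMAC4_05235 and SMAC4_05236. H3K27me3 replicate 1 covered 42.2% of it and the H3 lists 45.5% and 19.3%. A wide H3K27me3 peak of one replicate was thus not necessarily a wide peak of the other.

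Chromosome ends were poor in peaks with both antibodies in Δasf1. The last 100 kb at each of the 14 ends make up 3.55% of the genome and held 1.77% and 2.62% of H3K27me3 covered length, against 2.23% and 3.11% of H3 covered length. The difference was -0.475 percentage points (exact two-sided permutation test, p = 0.667), with -0.458 within replicate 1 and -0.493 within replicate 2. Without H3 replicate 2 it was -0.035 points, without H3K27me3 replicate 1 -0.052 points, and at a common -log10 q of 2.05 it was -1.55 points. Part of this length was the rRNA gene array, and without it the shares were 0.928% and 1.93% with H3K27me3 and 1.47% and 1.81% with H3, of 3.33% of the genome, so that replicate 2 then had the higher share with H3K27me3. Ends of the wild type, with the array, held 6.03% and 12.5% of H3K27me3 length and 2.17% and 2.66% of H3 length, higher with H3K27me3 by 3.86 and 9.80 points. The antibody difference in Δasf1 minus that in the wild type was -7.30 points (exact permutation of strain labels within antibodies, p = 0.111, smallest possible 0.0556), and -6.86 points without H3 replicate 2 of Δasf1.

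Taken end by end, relative density, the share of a stretch that a list covers over the share of the genome that it covers, was 0.11 to 0.60 (median 0.26) and 0.35 to 0.95 (median 0.51) in the H3K27me3 lists of Δasf1. In its H3 lists it was 0.27 to 0.91 (median 0.41) and 0.21 to 0.88 (median 0.56). Every Δasf1 list thus lay under its own genome average at every end, the array left out. At none of 14 ends did both H3K27me3 lists lie above both H3 lists, and at 3 ends (21.4%) both lay below. These 3 were the left end of chromosome 2, the 10.6 kb of its right end outside the array, and the right end of chromosome 7. Within replicate 1 H3K27me3 was lower at 13 ends and within replicate 2 at 7. Wild-type H3K27me3 lists both lay above both H3 lists at 13 of 14 ends (92.9%).

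From 200 kb inwards the profile with distance was close for both antibodies, and nearer the ends the lists differed. In the outermost 20 kb the relative density was 0.47 and 1.35 for H3K27me3 against 0.93 and 1.90 for H3, and from 20 to 50 kb it was 0.0708 and 0.366 for H3K27me3 and 0.139 and 0.217 for H3. From 50 to 100 kb it was 0.327 and 0.405 for H3K27me3 and 0.427 and 0.204 for H3. H3K27me3 was thus the lower in both replicates in the outermost class, and from 20 to 100 kb it was the lower in replicate 1 and the higher in replicate 2. Replicate 2 was higher than replicate 1 with both antibodies in the outermost class. Beyond 1600 kb all 4 lists were between 1.05 and 1.07. The wild-type H3K27me3 lists had 3.95 and 5.41 in the outermost 20 kb and 0.88 and 0.60 beyond 1600 kb.

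**Figure D4:**
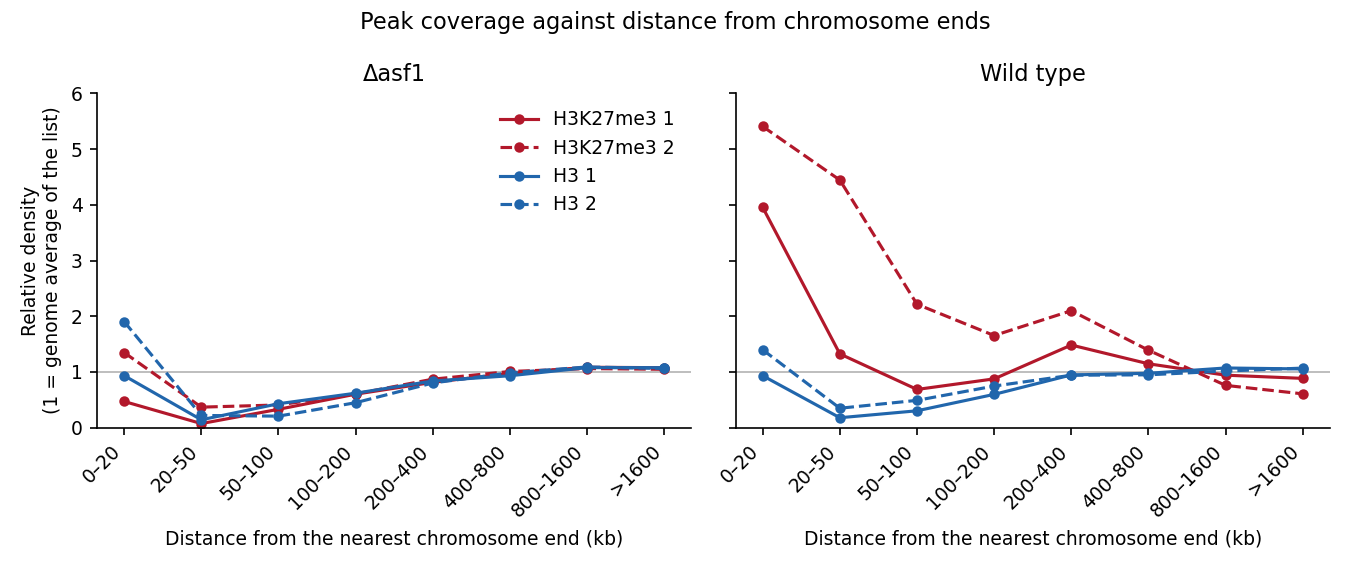
Relative density of peaks (1 is the genome average of the list) by distance from the nearest chromosome end in kb, without the rRNA gene array, for Δasf1 on the left and the wild type on the right (red, H3K27me3; blue, H3; solid, replicate 1; dashed, replicate 2). All 4 Δasf1 lines run together from 200 kb inwards and none exceeds 1.90 at the end, while the wild-type H3K27me3 lines start at 3.95 and 5.41.

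Whole chromosomes did not separate the antibodies. On none of the 7 chromosomes did both H3K27me3 lists lie above, or both below, the H3 lists. Relative density was lowest at 0.80, in H3 replicate 2 on chromosome 6, and highest at 1.19, in H3 replicate 2 on chromosome 2. On chromosome 2 it was 1.14 and 1.11 with H3K27me3 and 1.11 and 1.19 with H3. All 4 lists had their highest value there. The rRNA gene array and the stretch from 0.7 to 1.3 Mb both lie on that chromosome and were not left out. The lists covered 76.5% to 85.6% of the array, and in the stretch their relative densities were 1.64 to 2.35. The part of either in the chromosome values was not tested.

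In windows of 100 kb, both H3K27me3 lists of Δasf1 were above both H3 lists in 55 of 394 (14.0%) and below both in 52 (13.2%). For the wild type it was 75 above (19.0%) and 189 below (48.0%). With 2 lists against 2, 1 of the 6 assignments puts both H3K27me3 lists above and 1 puts both below, whatever the antibody does. The median absolute difference of antibody means in Δasf1 was 0.115 of the genome average, smaller than the median SD of 0.146 between replicates, and in the wild type it was 0.375 against an SD of 0.214. The strains shared 14 windows above, of 55 in Δasf1 and 75 in the wild type, and 27 windows below, of 52 in Δasf1 and 189 in the wild type. Over the 393 windows outside the rRNA gene array, as a description, Pearson's r was 0.88 between H3K27me3 and H3 of replicate 1, 0.68 between the H3K27me3 lists and 0.63 between the H3 lists. Between H3K27me3 and H3 of replicate 2 it was 0.67. In the wild type r was 0.23 between H3K27me3 and H3 of replicate 1, -0.31 between those of replicate 2, 0.71 between the H3K27me3 lists and 0.70 between the H3 lists. All lists share the sequence of the genome, and neighbouring windows are not independent.

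The largest excess of H3K27me3 among the separated windows was on chromosome 6 from 2100001 to 2200000, with relative densities of 1.20 and 1.40 for H3K27me3 and 1.04 and 0.59 for H3. On chromosome 2 from 4900001 to 5000000 the values were 1.27 and 1.27 with H3K27me3 and 0.94 and 0.87 with H3, and in the wild type both H3K27me3 lists were below both H3 lists in each of these windows. Among the 5 windows of largest excess, only that on chromosome 4 from 700001 to 800000 was above in the wild type too, with 1.08 and 1.03 for H3K27me3 against 0.86 and 0.31 for H3 in Δasf1. Its wild-type values were 1.502 and 1.751 for H3K27me3 against 0.88 and 0.99 for H3. The lowest was on chromosome 2 from 2400001 to 2500000, with 1.11 and 0.68 for H3K27me3 and 1.15 and 1.63 for H3. None of the 10 named windows lay at a chromosome end or in the duplicated stretch.

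Stretches that carried the mark in the wild type were used to ask whether it was still seen in Δasf1, whose lists had no part in choosing them. These stretches were defined after the lists had been examined. The 0.613 Mb covered by both wild-type H3K27me3 lists and neither wild-type H3 list had relative densities of 0.68 and 1.14 with H3K27me3 and 0.88 and 1.03 with H3 in Δasf1. The log2 ratio of antibodies was -0.12 (exact two-sided permutation test, p = 1), with a ratio of 0.770 in replicate 1 and of 1.11 in replicate 2. The Δasf1 H3K27me3 lists thus lay on either side of their genome average there, as the H3 lists did. The 49 wild-type H3K27me3 peaks of 10 kb or more in replicate 2, 1.29 Mb in all, were covered to 12.9% and 23.5% by H3K27me3 and to 17.6% and 14.2% by H3 in Δasf1. Relative densities in these peaks were 0.58 and 0.95 with H3K27me3 and 0.73 and 0.97 with H3 (log2 ratio -0.18, exact two-sided permutation test, p = 0.667). The other wild-type H3K27me3 list covered 50.9% of them.

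Stretches with H3 peaks only in the wild type were rich in peaks of both antibodies in Δasf1. The 1.81 Mb covered by both wild-type H3 lists and neither wild-type H3K27me3 list had relative densities of 2.91 and 2.07 with H3K27me3 and 2.72 and 2.09 with H3 (log2 ratio 0.044, exact permutation test, p = 1). In the 1.35 Mb covered by all 4 wild-type lists they were 3.50 and 3.14 with H3K27me3 and 3.53 and 3.87 with H3 (log2 ratio -0.16, exact permutation test, p = 0.333, smallest possible). In both Δasf1 H3K27me3 lists the relative density was thus higher where the wild type had only H3 peaks than where it had only H3K27me3 peaks.

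**Figure D5:**
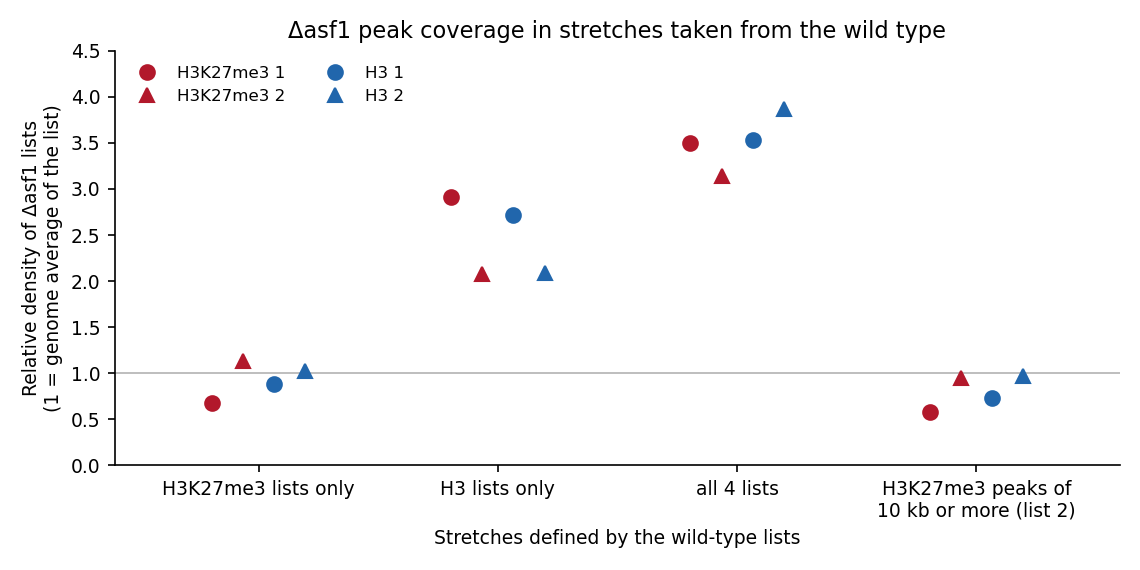
Relative density of the 4 Δasf1 lists (red, H3K27me3; blue, H3; circles, replicate 1; triangles, replicate 2) in stretches defined by the wild-type lists on the horizontal axis. Both antibodies lie between 0.68 and 1.14 where only the wild-type H3K27me3 lists had peaks, and between 2.07 and 2.91 where only the wild-type H3 lists had them.

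Genes held most of the peak length with either antibody. Of H3K27me3 covered length 83.7% and 75.2% lay in annotated genes, and of H3 covered length 81.6% and 74.7%, while genes make up 58.2% of the genome. The difference was 1.32 percentage points (exact two-sided permutation test, p = 0.667), 2.16 within replicate 1 and 0.486 within replicate 2. It turned to -2.11 points without H3 replicate 2 and to -2.94 without H3K27me3 replicate 1. In the wild type the shares were 76.8% and 62.8% with H3K27me3 and 82.4% and 76.2% with H3. The strain difference was 10.8 points (exact permutation of strain labels, p = 0.333).

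At least 50% of the length of 2926 and 3188 of 10309 protein-coding genes was covered by the H3K27me3 lists of Δasf1, against 3261 and 1762 by its H3 lists. In 697 genes (6.76%) all 4 lists reached this, and in 2029 (19.7%) no list covered a base. Genes so covered by both H3K27me3 lists and to under 10% by both H3 lists numbered 49 (0.475%), and the converse 28 (0.272%). Genes covered by replicate 1 of both antibodies and not by replicate 2 numbered 141 (1.37%). The wild type had 105 genes (1.02%) covered by the H3K27me3 lists only and 188 (1.82%) by the H3 lists only. Of the 105, 11 and 27 were covered to 50% or more by the H3K27me3 lists of Δasf1 and 17 and 9 by its H3 lists. These were 10.5% and 25.7% with H3K27me3 and 16.2% and 8.57% with H3. Among all protein-coding genes the shares were 28.4% and 30.9% with H3K27me3 and 31.6% and 17.1% with H3. A single gene, SMAC4_13920 on chromosome 6, had H3K27me3 only in both strains (0.00970% of genes). It was chosen after its values had been seen, and it was covered to 100% by the 4 H3K27me3 lists of both strains and to 0 by their 4 H3 lists.

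The kinds of RNA gene did not separate the antibodies either. Of 445 tRNA genes, 3 and 22 were covered to at least 50% by the H3K27me3 lists and 7 and 14 by the H3 lists. All but a few of the 30 annotated rRNA genes were covered by every list, 30 and 28 with H3K27me3 and 29 and 30 with H3. The gene of histone H3 itself, SMAC4_02363 on chromosome 5 from 2835879 to 2837027, named so in the study's plasmid list, was looked up after the data had been seen. The H3K27me3 lists of Δasf1 did not cover it, whereas its H3 lists covered 66.7% and 57.1%. Among the wild-type lists H3K27me3 replicate 2 alone had a peak there, over 89.7% of the gene.

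The part of chromosome 2 from 0.7 to 1.3 Mb, taken here for the duplicated stretch, was rich in peaks with both antibodies in Δasf1. The paper describes the duplication as 2 parts with a middle that was not duplicated, so this interval is not duplicated throughout. Between 0.7 and 1.3 Mb the lists covered 41.0% and 41.0% with H3K27me3 and 42.8% and 34.7% with H3, relative densities of 1.85 and 1.64 against 1.76 and 2.35. Of the same stretch in the wild type 13.9% and 14.9% were covered with H3K27me3 and 20.8% and 31.3% with H3. A published list of duplicated genes, consulted after the data had been seen, gave 106 names that were found by locus tag on chromosome 2. Of these genes, 56 and 64 were covered over at least 50% of their length with H3K27me3 and 57 and 58 with H3 in Δasf1. These were 52.8% and 60.4% with H3K27me3 and 53.8% and 54.7% with H3, whereas among the other protein-coding genes it was 28.1% and 30.6% with H3K27me3 and 31.4% and 16.7% with H3. In the wild type 15 and 11 were so covered with H3K27me3 (14.2% and 10.4%) and 29 and 44 with H3 (27.4% and 41.5%), and the other genes had 21.7% and 20.4% with H3K27me3 and 26.3% and 40.6% with H3. All 4 Δasf1 lists so covered 32 of the 106, and 697 of all 10309 protein-coding genes (6.76%). Of the 106, 1 gene was covered by the H3K27me3 lists only, SMAC4_04397 at 92.8% and 94.5%, which was singled out after its values had been seen, and none by the H3 lists only.

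Among the duplicated genes are 3 whose products handle histones or work at the replication fork, picked for these roles after the data had been seen. SMAC4_07816, predicted to be a histone H1-binding protein, was covered to 100% and 100% with H3K27me3 and to 82.4% and 100% with H3. SMAC4_04395, predicted to be the large subunit of chromatin assembly factor 1, which deposits H3 and H4 behind the fork, was covered to 80.1% and 35.7% with H3K27me3 and to 77.1% and 25.8% with H3. SMAC4_05562, predicted to be the Mcm2 subunit of the replicative helicase, had 91.2% and 93.8% with H3K27me3 and 84.5% and 44.3% with H3. In all 3 genes both antibodies had peaks in both replicates. Among all protein-coding genes, 58.7% and 62.1% had some overlap with a peak with H3K27me3 and 61.6% and 44.0% with H3. The share of genes with a peak in all 4 lists is not given here. The part of copy number in the coverage of this stretch was not tested, and without it none of the comparisons over the 4 lists turned round and no count moved by more than 1.5 times.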

How the data were processed

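The samples were grouped by strain, antibody and replicate number from their labels. Per the labels and the submitters' processing notes, which name fastp, Bowtie2 and MACS2 without versions or settings, reads were trimmed, mapped and called as broad peaks in each library. The labels name each input as the control for a precipitated library. How the inputs entered the calls is not given in the sources used here, and the 8 input samples were not analysed. Each list deposited by the authors gives positions, a score (10 times the -log10 q rounded down, with at most 1 exception a list), a fold enrichment (a ratio over the caller's background), and -log10 p and -log10 q values from the authors' caller. These values describe or rank the peaks of a list, and -log10 q also set the common cutoff, but none was tested between lists. The lists hold positions without read numbers, so no counting interval is given.

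Positions, counted from 1, are those of the assembly named Sm_v04_wtN in the lists. Genes (10309 protein-coding of 10804) came from a RefSeq table of assembly ASM3387043v1. Because the names differ, peaks were slid along the genes, and the share of length in genes was highest within 100 bp of no offset in 56 of 56 pairs of chromosome and list. Peaks of a list were merged where they touched. Regions were merged over the 4 lists of a strain, and lists belonged to a region by at least 1 shared base. Relative density was calculated as defined in the text, in windows of 100 kb, and the rRNA gene array is the 89.4 kb from the first rRNA gene to the right end of chromosome 2.

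Antibodies were compared with exact permutation tests over lists. Replicate libraries are called so in the labels alone, and p-values measure only the spread between them. Regions named were, for H3K27me3 only, the 10 of at least 500 bp with the highest enrichment in the weaker list and the 5 longest, for H3 only the leading 5 and the 3 longest, and the 3 longest in all 4 lists. Windows named were the 5 largest and 5 smallest differences among separated windows. The comparison, the lists of regions and the tests were chosen with earlier results of these data known. Border distances, ranks by q, gene coverage, the duplicated genes and the stretches taken from the wild type were added after the data had been seen, and product words planned for gene groups could not be used without products. Alternatives were the upper 50% of peaks by q, a common -log10 q of 2.05, 4401 top peaks per list, joining within 1 kb, stricter overlap, windows of 50 and 200 kb, ends of 50 and 200 kb, widths of 3 and 10 kb, genes with 1 kb flanks, overlap over the shorter list, exclusion of the array or of chromosome 2 from 0.7 to 1.3 Mb, a replicate block, and leaving out each list. Python 3.11.15, NumPy 2.4.6, pandas 2.3.3, SciPy 1.17.1 and matplotlib 3.10.9 were used, and the functions were tested on simulated lists.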

Additional observations from a re-analysis of the deposited data

Results flagged for a closer look

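At chromosome ends the 2 strains lay on opposite sides. The share of covered length within 100 kb of an end was lower with H3K27me3 than with H3 in both Δasf1 replicates, by -0.458 and -0.493 percentage points, and higher in both wild-type replicates, by 3.86 and 9.80 points. The order in replicate 2 of Δasf1 rested on the rRNA gene array, without which the shares were 0.928% with H3K27me3 and 1.47% with H3 in replicate 1, but 1.93% with H3K27me3 and 1.81% with H3 in replicate 2. The difference between strains was tested by exact permutation of strain labels within antibodies, with p = 0.111 where the smallest possible is 0.0556.

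In genes the order was the other way round. The share of length in genes was higher with H3K27me3 than with H3 by 2.16 and 0.486 points in the Δasf1 replicates, and lower in the wild-type replicates, at -5.60 and -13.4 points (same exact permutation test, p = 0.333). Groups of 2 lists were too small to look for single lists that stand far from their group.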

How the results depend on the processing

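With 1 list left out at a time, the log2 ratio of H3K27me3 over H3 in Δasf1 ran over -0.053 to 0.478 for peak number, -0.050 to 0.674 for covered length and -0.00414 to 0.131 for median width. The differences in percentage points ran over -0.535 to 4.99 for peaks of 5 kb or more, -2.94 to 5.59 for genes, -0.915 to -0.035 for chromosome ends and -11.2 to 9.30 for overlap. Regions ran over 390 to 1457 with H3K27me3 only and 368 to 598 with H3 only, and separated windows over 118 to 150 above and 115 to 140 below, since 1 list fewer then had to part. Strain differences ran over -14.2 to 2.83 points for wide peaks and -26.0 to 5.05 for overlap, whereas those for ends (-10.5 to -4.09) and genes (3.79 to 17.8) kept their sign. Other settings moved several values too. The common q left 2575 peaks in H3K27me3 replicate 2 and 1315 in H3 replicate 2 of Δasf1, against 6088 and 6357 in replicate 1, so it did not even out the lists. At the common q the Δasf1 difference was -1.55 points for ends and -7.95 points for overlap, the log2 ratio was 0.55 for covered length and 0.45 for peak number, and the strain difference was -9.61 points for wide peaks and -10.8 for overlap (exact permutation of strain labels, p = 0.0556, the smallest possible). For ends the Δasf1 difference was -0.978 points with the upper 50% of peaks, -0.207 without the array and -0.224 within 200 kb. The strain difference for wide peaks was -9.83 points with the upper 50%, -2.84 with equal numbers of top peaks and -9.33 with at least 10 kb. Overlap over the shorter list gave -2.36 points in Δasf1 and -4.99 between strains. With 1 kb flanks the difference for genes was 0.313 points in Δasf1 and 4.14 between strains. With equal numbers of top peaks the log2 ratio was 0.16 for covered length and 0.15 for median width, which was 0.103 with the upper 50% and 0.096 at the common q. With peaks of at least 10 kb the Δasf1 difference was -0.228 points, and with at least 3 kb it was 5.02 points and the strain difference 4.10 points. Regions with H3K27me3 only numbered 116 at the common q and 133 under the stricter rule of overlap. Regions with H3 only numbered 33 at the common q, 165 with equal numbers of top peaks and 59 under the stricter rule. The cause of these changes was not tested. With equal numbers of top peaks, peak number is equal by construction and was not compared.

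Lists of the same replicate number share that number and a similar cutoff, but no label ties them to a batch, and there are only 2 pairs. With a replicate block the difference for ends was -0.475 points as without it (exact sign-flip permutation, p = 0.5, the smallest possible), and the overlap difference over pairs of different numbers was -0.56 points. Deviations of H3K27me3 and H3 lists from their group means correlated with r = 0.29 over 393 windows of 100 kb. No call changed, since no design with 2 lists a group can reach 0.05. Unknown depth and the cutoff that differs by replicate number limit every count.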
